A study of Mus musculus with 12 samples.

Results

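The comparison described here is the effect of retinoic acid (RA) in cells labelled RARα TG, which carry excess RARα receptor mRNA. It sets 2 libraries of TG cells given 10 nM RA against 2 libraries of TG cells given 0 nM RA, out of 12 RNA-seq libraries in the series. Genes entered if they reached 1 FPKM (fragments scaled by exon length and sequencing depth) in at least 2 of the 12 libraries, which left 11922 of the 52635 genes listed. All libraries came from naive CD4 T cells of C57BL/6 mice, more than 95% pure, and were harvested after 24 h of stimulation with antibodies to CD3 and CD28 in medium with charcoal-stripped serum. Every group received the same mixture, which drives cells towards the Th17 state: 10 ng/mL each of IL-23, IL-21 and IL-1β, 20 ng/mL of IL-6, 5 ng/mL each of TGF-β1 and TNFα, and 10 µg/mL each of antibodies that block IL-4 and IFNγ. The other groups were WT cells with and without RA and cells labelled RARα KO with and without RA, also with 2 libraries each. The sources used here do not give the TG construct, the cells that express it or the KO allele. TG replicate 1 carried Y-linked transcripts and TG replicate 2 carried Xist at both doses, so the replicates were different animals, one male and one female. All WT libraries were male and all KO-labelled libraries female. Depth in TG was 16798996 and 25415030 reads with RA and 19734846 and 25534588 reads without RA, as recovered from the FPKM values. The labels do not say that replicates of the other groups were separate animals, and the p-values speak only of the spread between the libraries deposited.

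RA, made from vitamin A, is the ligand of the retinoic acid receptors. RARα binds DNA as a heterodimer with a retinoid X receptor; without ligand the pair recruits corepressors, and with ligand it recruits coactivators. In CD4 T cells RA is known to favour regulatory T cells and gut-homing receptors and to restrain the Th17 programme.

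Rara itself lies on chromosome 11 (ENSMUSG00000037992, GRCm38, bases 98927818 to 98974942). Its level was 126 and 119 FPKM in replicates 1 and 2 of TG with RA and 72.8 and 63.3 FPKM in TG without RA. It stood at 12.3 and 14.2 FPKM in WT with RA and at 16.5 and 18.9 FPKM in WT without RA. Every TG library lay above every WT library, and the TG libraries with RA lay above those without. The RA effect was a log2 change of 0.85 ± 0.09 in TG (± SE, limma adjusted p = 0.00016) and -0.39 ± 0.09 in WT (adjusted p = 0.031), one of only 5 genes called in opposite directions in both genotypes. The TG minus WT difference of the RA effect was 1.24 ± 0.13 (adjusted p = 0.00093). A gene-level value does not separate transcripts of the construct from those of the gene. In the KO-labelled libraries gene-level Rara was not lower than in WT, so directions drawn from that label rest on the label alone.

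RA changed 4662 genes in TG, 39.1% of those tested, at an adjusted p under 0.05. Of these, 2350 rose (19.7%) and 2312 fell (19.4%). The counts of gene lists below are to be read beside these shares. Changes were taken between log2(FPKM + 1) values, where the pseudocount of 1 shrinks the change of weakly expressed genes. The rises were larger than the falls: 526 genes rose 2-fold or more (4.41% of all tested) and 228 fell as much (1.91%). Of the rises 1103 were smaller than 0.5 on the log2 scale, against 1589 of the falls, and 40 rises and 12 falls reached 3 or more. The falls lay more often among abundant transcripts. Of 381 tested genes with a mean of 100 FPKM or more over all libraries, 56 rose and 149 fell. In every called gene both libraries of one dose lay above both of the other, which also held for 71.1% of all genes tested. Of the genes tested, 198 reached 1 FPKM in 2 libraries only through TG with RA and 120 only through TG without RA, so a difference of these was built into the filter. They hold 121 of the rises and 51 of the falls. Without TG 0 nM replicate 2, the falls dropped to 1449, and the rises numbered 1784.

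The same contrast called 1209 genes in WT (10.1%), of which 795 rose (6.67%) and 414 fell (3.47%), and 17 in the KO-labelled cells (0.143%). A block on replicate number gave 73 calls in the KO-labelled cells, and the same block within genotype 75. Of the WT calls, 1097 were called in the same direction in TG, which is 90.7% of the WT calls and 23.5% of the TG calls. In 989 of the 1209 genes called in WT the change was larger in size in TG. The median ratio of the log2 change in TG to that in WT was 1.63 over the same 1209 genes. Over the 11922 genes the RA effects in TG and WT correlated at 0.696, where genes are not independent replicates. The RA effect itself differed between TG and WT in 892 genes (7.48%), of which 566 were more positive in TG (4.75%) and 326 more negative (2.73%). The 892 dropped to 499 without TG 0 nM replicate 2, 485 without TG 10 nM replicate 1 and 512 without TG 10 nM replicate 2. Against the KO-labelled cells the RA effect of TG differed in 1849 genes (15.5%).

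**Figure D1:**
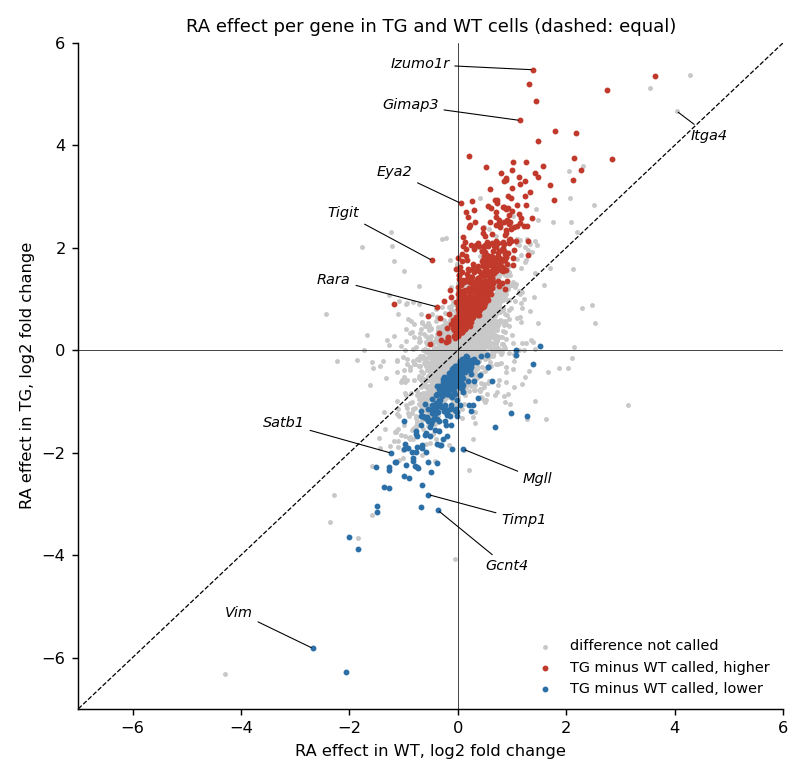
RA effect of each of the 11922 genes as log2 fold change in TG (vertical axis) against WT (horizontal axis), with the 566 genes of a called higher TG minus WT difference in red, the 326 of a called lower one in blue, and equality as a dashed line. Red points lie above the dashed line, most of them in the upper right, and blue points below it, most of them in the lower left.

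The genes of a called difference lay apart from WT at both doses. In the 566, the median TG minus WT difference of the log2 levels was 0.56 with RA and -0.16 without RA, and both TG libraries lay above both WT libraries with RA in 539 genes and below them without RA in 371. In the 326, the medians were -0.28 with RA and 0.24 without RA. With RA both TG libraries lay below both WT libraries in 287 genes, and without RA they lay above in 272. Over all tested genes both TG libraries lay above both WT libraries with RA in 2921 and below in 3563, and without RA above in 3115 and below in 2625. These positions follow in part from the choice of genes by the difference and are given as a description.

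**Figure D2:**
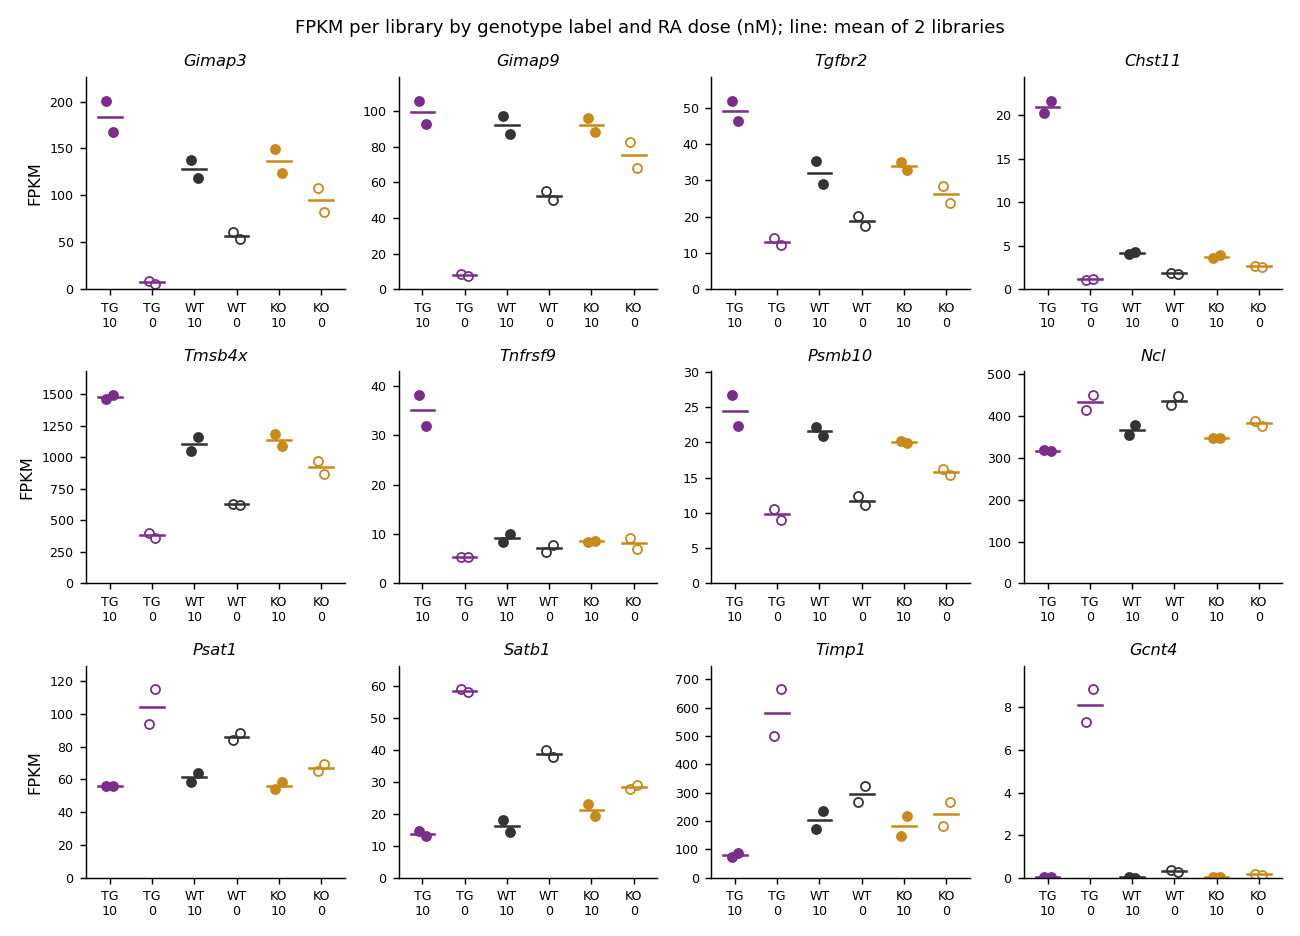
FPKM in each library of 12 genes described in the text, by genotype label and RA dose in nM, with TG with RA at the left, the 2 libraries as points (filled with RA, open without) and their mean as a line. For Gimap3 and Gimap9 the TG libraries without RA are the lowest of all groups, for Chst11 and Tnfrsf9 the TG libraries with RA stand alone at the top, and for Gcnt4 the TG libraries without RA do.

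Genes that handle retinoids and the receptors that partner RARα were considered next. Dhrs3, a reductase that turns retinaldehyde back into retinol, stood at 6.61 and 5.36 FPKM in TG with RA, against 0.0173 and 0.0268 FPKM without RA. Cyp26b1, which degrades RA, stood at 2.71 and 1.57 FPKM with RA and was listed at 0 and at 0.0146 FPKM without. Both were near 0 in every TG library without RA. Rxra, the gene of the main partner receptor, moved the other way, with 3.62 and 3.41 FPKM with RA against 9.36 and 12.3 FPKM without RA (log2 change -1.38 ± 0.13, adjusted p = 7.0e-05). Fabp5, whose protein carries RA towards other nuclear receptors, fell by 1.04 ± 0.15 (log2 ± SE). Vdr, the vitamin D receptor gene, rose by 1.90 ± 0.21 and Nrip1, a corepressor of nuclear receptors, by 3.73 ± 0.12. Of 13 tested genes of retinoid handling 5 rose and 3 fell, with a median log2 change of 0.14. Of the 5 rises, Cyp26b1 and Dhrs3 passed the filter only through TG with RA, so their rise was built into it. Only 1 fall was left without any 1 of the 4 TG libraries. Of 20 tested nuclear receptors 7 rose (35%) and 4 fell (20%), against 19.7% and 19.4% of all genes tested.

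Promoter windows of RefSeq (GRCm38.p6, 250 bases before to 50 bases after the start of each gene) were searched on both strands for exact retinoid repeats. The repeat was 2 sites in the same direction, either AGGTCA or a version of it (the form GGGTCA, the form AGTTCA and the form GGTTCA), with 1, 2 or 5 bases between them. Among called genes that changed 2-fold or more, 3 held such a repeat, and their sites are shown with the repeat in capitals and 12 bases on each side. All have a spacer of 1 base and lie upstream of genes on the minus strand: the Igsf23 site at chr7:19950803-19950815, the Phactr2 site at chr10:13324319-13324331 and the Cxcl10 site at chr5:92349025-92349037. Each is written 5′ to 3′ along the gene's strand.
Igsf23: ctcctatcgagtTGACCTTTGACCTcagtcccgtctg
Phactr2: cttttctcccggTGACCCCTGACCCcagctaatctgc
Cxcl10: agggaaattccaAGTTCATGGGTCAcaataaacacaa
In Igsf23 and Phactr2 the repeat reads on the opposite strand. Igsf23, an immunoglobulin superfamily gene, stood at 10.7 and 8.28 FPKM with RA and 1.81 and 1.25 FPKM without RA, and Phactr2, which encodes an actin and phosphatase regulator, at 6.54 and 7.58 FPKM with RA and 1.45 and 1.57 FPKM without. Both rose, whereas the chemokine gene Cxcl10 fell, with 0.132 and 0.140 FPKM with RA against 2.77 and 3.44 FPKM without RA. Cxcl10 passed the filter only through TG without RA, so its fall was built into it. The repeat was found in 5 of 1786 rises with a window (0.28%), in 9 of 1783 falls (0.505%), in 31 of 8309 tested genes (0.373%) and in 193 of all 32851 windows (0.588%). By spacer, 4 rises and 8 falls held it with 1 base, 1 and 1 with 2 bases, and 0 and 0 with 5 bases. None of 31 genes that rose 8-fold or more held it. The single site AGGTCA was in 312 of 1786 rises (17.5%), 235 of 1783 falls (13.2%), 1201 of 8309 tested genes (14.5%) and 4900 of 27025 genes with a window (18.1%). A match describes letters in a window, not a bound site, and these 3 genes were chosen after their values were seen.

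The GIMAP genes, a cluster on chromosome 6 that encodes GTPases for lymphocyte survival, rose as a whole. All 9 tested members, Gimap1os included, were called higher with RA in TG and in each alternative setting, with a median log2 change of 2.81 in TG against 0.89 in WT. Gimap3 (ENSMUSG00000039264, 48764464 to 48770851) stood at 201 and 167 FPKM in TG with RA, against 8.53 and 6.12 FPKM in TG without RA, and at 137 and 118 FPKM in WT with RA, against 61.2 and 53.3 FPKM in WT without RA. Gimap9 stood at 106 and 92.6 FPKM in TG with RA and 8.83 and 7.35 FPKM in TG without RA. In WT it stood at 97.2 and 87.1 FPKM with RA and 54.9 and 49.9 FPKM without RA. Both TG libraries without RA lay below both WT libraries without RA in 9 of 9 members, by a median of -1.89 on the log2 scale. With RA the TG libraries lay above WT in 4 members and below it in 2, with a median difference of 0.17. The RA effect differed between TG and WT in 8 of 9, for Gimap3 by 3.34 ± 0.26 (adjusted p = 0.00024). Gimap7, the exception, stood at 1.28 and 1.68 FPKM with RA and 0.153 and 0.101 FPKM without RA, a log2 change of 1.13 ± 0.22. Neighbouring members are similar in sequence and Gimap1os overlaps its cluster, and the sources used here do not say whether reads were counted by strand, so reads may be divided among them. In bulk samples fewer cells of a type and less RNA per cell cannot be told apart.

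**Figure D3:**
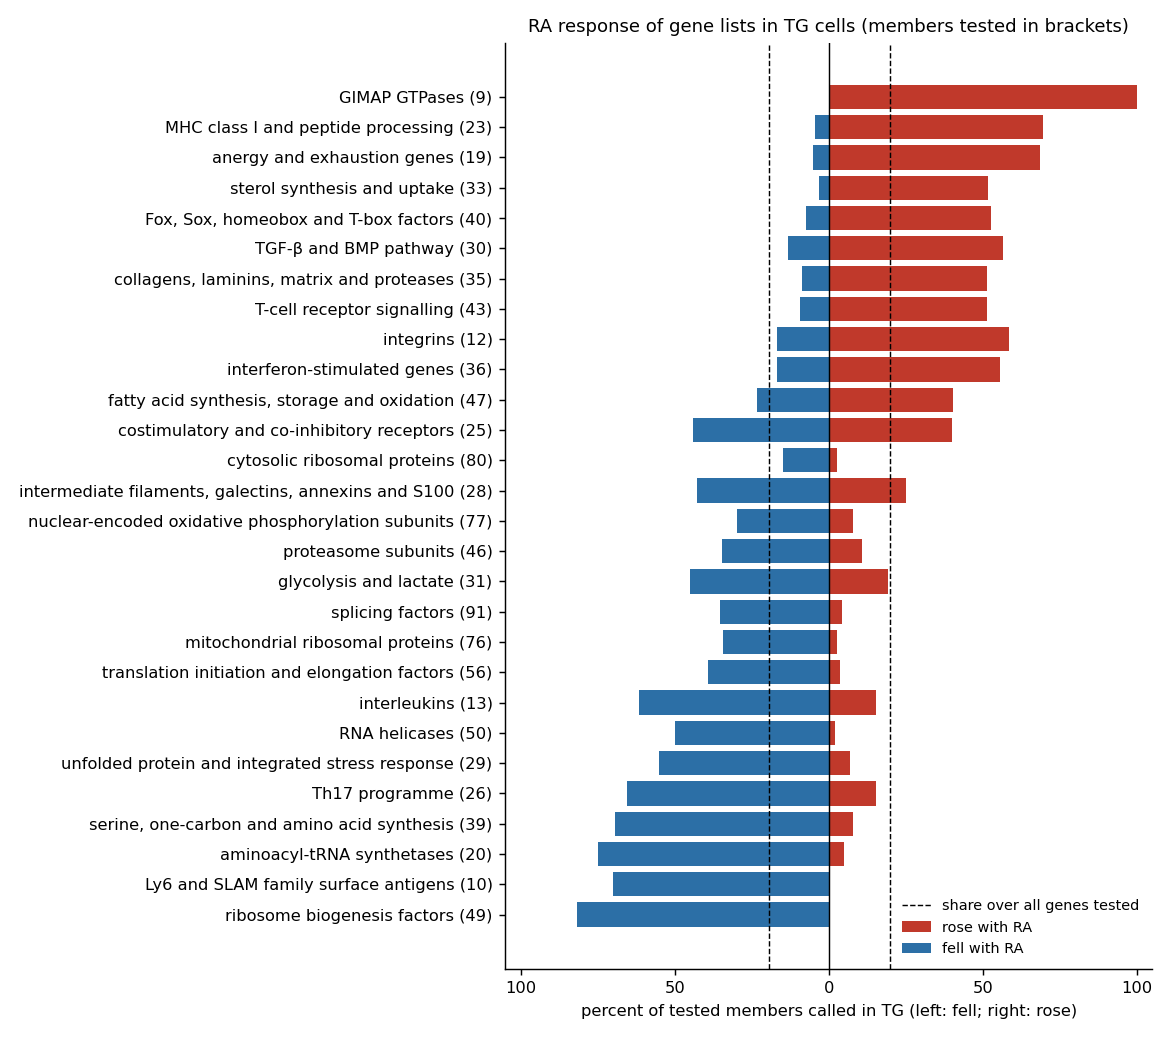
Share of the tested members of 28 gene lists that rose (red, right) or fell (blue, left) with RA in TG, in percent, with the number of members tested in brackets and the shares over all genes tested as dashed lines at 19.7% and 19.4%. GIMAP genes, with 9 of 9 higher, stand at the top and ribosome biogenesis factors, with 40 of 49 lower, at the bottom.

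Genes of MHC class I and its peptide supply rose together. Of 23 tested members 16 rose and 1 fell, with a median log2 change of 0.51. Psmb10, an immunoproteasome subunit gene, stood at 26.7 and 22.2 FPKM with RA and 10.6 and 8.96 FPKM without RA (1.24 ± 0.10, adjusted p = 3.2e-05). Psmb8, another such subunit gene, stood at 45.2 and 40.3 FPKM with RA and 20.2 and 20.98 FPKM without RA. Tap2, which encodes a subunit of the peptide transporter, stood at 41.0 and 36.6 FPKM with RA and 18.6 and 16.7 FPKM without RA. In these 3 genes the doses did not overlap. Tapbpl, a peptide editor, rose by 1.23 ± 0.08 and the classical class I gene H2-K1 by 0.56 ± 0.09. B2m, the shared light chain, stood at 1396 and 1177 FPKM with RA and 1224 and 1102 FPKM without RA and was not called. Nlrc5, the activator of class I transcription, was the member that fell, with 4.97 and 3.56 FPKM with RA against 9.97 and 7.11 FPKM without RA. Class I genes have close copies, among which reads may be divided.

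Interferon-stimulated genes split. Of 36 tested 20 rose and 6 fell, with a median log2 change of 0.43. Tgtp1, an interferon-induced GTPase, stood at 10.3 and 8.34 FPKM with RA and 0.917 and 0.538 FPKM without RA. Usp18, which restrains interferon signalling, rose by 1.75 ± 0.17 and Ifit2 by 1.09 ± 0.09. Gbp2, a guanylate-binding GTPase, moved the other way, with 24.4 and 15.8 FPKM with RA against 262 and 141 FPKM without RA (-3.23 ± 0.33, adjusted p = 0.00012), and so did Gbp5 (-2.28 ± 0.16). Copies of Tgtp and Gbp genes may share reads. All 8 tested interferon regulatory factors were called: 5 rose, Irf1 by 0.84 ± 0.13 and Irf2 by 0.81 ± 0.13, and 3 fell, among them Irf4 (-0.71 ± 0.05), a factor that Th17 differentiation requires. Irf4 stood at 249 and 251 FPKM with RA and 404 and 415 FPKM without RA.

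A core of the interferon-type element, written as GAAA, any 2 bases and GAAA again, was in the promoter windows of 19 of 25 tested interferon-stimulated genes with a window (76%), against 310 of 8309 tested genes (3.73%) and 1079 of 27025 genes with a window (3.99%). The sites of a pair of genes that rose and a pair that fell are shown with the match in capitals, 5′ to 3′ along the gene's strand. They lie at chr11:48992314-48992323 (Tgtp1, minus strand), chr11:48871435-48871444 (Irgm1, minus strand), chr3:142620604-142620613 (Gbp2, plus strand) and chr3:142496769-142496778 (Gbp5, plus strand).
Tgtp1: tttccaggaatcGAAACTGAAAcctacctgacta
Irgm1: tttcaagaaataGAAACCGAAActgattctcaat
Gbp2: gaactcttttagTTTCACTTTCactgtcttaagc
Gbp5: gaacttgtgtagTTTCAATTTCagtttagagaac
The match reads on the opposite strand in Gbp2 and Gbp5. Irgm1, an immunity-related GTPase, rose by 0.83 ± 0.09, so the same 8 fixed letters stood before genes that rose and genes that fell.

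Of 30 tested genes of the TGF-β and BMP pathway 17 rose and 4 fell (2 of the 17 passed the filter only through TG with RA), with a median log2 change of 0.58 in TG against 0.05 in WT, and the RA effect was called more positive in TG than in WT in 12 of them. Tgfbr2, the ligand-binding receptor gene, stood at 51.9 and 46.4 FPKM with RA and 14.0 and 12.1 FPKM without RA. Smad3, a signal transducer, rose by 0.61 ± 0.08, with a log2 change of -0.04 in WT. Skil (0.70 ± 0.06), Smad7 (0.62 ± 0.06) and Pmepa1 (1.04 ± 0.05), which all dampen the pathway, rose too. Lrrc32, which docks latent TGF-β on regulatory T cells, rose by 2.25 ± 0.18 and Itgae, the αE integrin gene, by 2.46 ± 0.22. The 4 falls were Id1, Acvr2a, Tgif1 (-0.54 ± 0.06), a corepressor of the pathway, and Tgfbr3 (-0.26 ± 0.07), a coreceptor gene whose call ended without TG 0 nM replicate 1 or TG 10 nM replicate 1. Id1, a BMP target, stood at 1.59 and 2.10 FPKM with RA against 8.52 and 14.7 FPKM without RA, and Acvr2a, an activin receptor gene, at 2.31 and 2.65 FPKM with RA against 12.1 and 10.7 FPKM without RA.

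Matrix genes, proteases and lysosomal enzymes were among the larger changes. Of 35 tested collagens, laminins, matrix genes and proteases 18 rose and 3 fell (5 fell under a block on replicate number within genotype). Of the 18 rises and 3 falls, 1 rise and 1 fall passed the filter only through the TG group where they are high. Timp1, an inhibitor of metalloproteinases, fell to 73.1 and 89.0 FPKM with RA, against 499 and 665 FPKM without RA, and stood at 171 and 237 FPKM in WT with RA and 266 and 324 FPKM in WT without RA. The RA effect was -2.82 ± 0.26 in TG and -0.54 in WT, and the difference of -2.28 ± 0.37 was called (adjusted p = 0.0085). Ctsb, which encodes the lysosomal protease cathepsin B, stood at 186 and 179.5 FPKM with RA and 26.6 and 22.96 FPKM without RA (2.84 ± 0.11, adjusted p = 5.8e-07). Ctss, the gene of cathepsin S, stood at 166 and 128 FPKM with RA and 28.8 and 21.4 FPKM without RA. Ctsc, which activates granule proteases, rose by 1.67 ± 0.08. The doses did not overlap in any of these. Of 48 tested genes of autophagy and the lysosome 17 rose and 6 fell, and 2 of the falls were left without TG 0 nM replicate 2 or without TG 10 nM replicate 2.

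Enzymes that build surface glycans changed in both directions. Of 57 tested glycosyltransferases and sulfotransferases 22 rose (38.6%) and 12 fell (21.1%), against 19.7% and 19.4% of all genes tested. Among these members 1 rise and 2 falls, Gcnt4 among the falls, passed the filter only through the TG group where they are high. Chst11, a chondroitin sulfotransferase gene, stood at 20.2 and 21.7 FPKM with RA and 1.07 and 1.23 FPKM without RA (3.35 ± 0.07, adjusted p = 7.4e-08), and its RA effect exceeded that in WT by 2.47 ± 0.10 (adjusted p = 2.2e-05). St8sia6, a sialyltransferase gene, rose by 2.66 ± 0.22, and Mgat4a and Mgat5, which add branches to N-glycans, by 1.98 ± 0.08 and 1.93 ± 0.14. Gcnt4, which branches O-glycans, fell to 0.0234 and 0.0464 FPKM with RA, against 7.32 and 8.85 FPKM without RA. It stood at 0.0232 FPKM and 0 in WT with RA and 0.340 and 0.266 FPKM in WT without RA, so the TG libraries without RA stood apart from all others. B4galnt4 fell as well (-2.37 ± 0.07), and so did Fut7 (-1.72 ± 0.15) and Gcnt1 (-1.60 ± 0.18), which build selectin ligands.

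Of 12 tested integrins 7 rose and 2 fell (1 of the 7 passed the filter only through TG with RA). Of 63 tested actin cytoskeleton genes 18 rose (28.6%, against 19.7% of all genes tested) and 13 fell (20.6%, against 19.4%). The share of falls was thus near that of all genes. Fewer falls were left without TG 0 nM replicate 2 or without either TG 10 nM replicate. Tmsb4x, which encodes the actin-binding thymosin β4, stood at 1462 and 1493 FPKM with RA and 403 and 363 FPKM without RA (1.95 ± 0.09, adjusted p = 1.1e-06), and at 1049 and 1159.8 FPKM in WT with RA and 629 and 625 FPKM in WT without RA. Itgb2, the β chain of LFA-1, stood at 252 and 216 FPKM with RA and 85.2 and 74.2 FPKM without RA, and Cttn, the gene of the actin regulator cortactin, at 32.0 and 27.0 FPKM with RA and 0.532 and 0.598 FPKM without RA. All 3 rose. Of 28 tested intermediate filament, galectin, annexin and S100 genes 7 rose and 12 fell, and 7 had an RA effect called more negative in TG than in WT. Lgals1, the galectin-1 gene, stood at 61.3 and 64.8 FPKM with RA and 278 and 342 FPKM without RA. Lmna, which encodes lamin A and C, stood at 0.194 and 0.249 FPKM with RA and 7.61 and 12.7 FPKM without RA. Lgals3 (-2.63 ± 0.20), Anxa2 (-1.99 ± 0.17) and S100a10 (-1.58 ± 0.13) also fell. None of 10 tested Ly6 and SLAM genes rose and 7 fell (1 of the 7 passed the filter only through TG without RA). Ly6c1 stood at 2.45 and 1.10 FPKM with RA against 37.0 and 28.7 FPKM without RA, although near-identical Ly6 copies may divide reads.

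Of 43 tested genes of T-cell receptor signalling 22 rose and 4 fell, with 2 falls left without TG 0 nM replicate 1. Themis, a regulator of signal strength, stood at 14.2 and 14.0 FPKM with RA and 3.03 and 3.21 FPKM without RA, and Rasgrp1, which activates Ras, at 40.7 and 40.9 FPKM with RA and 14.1 and 11.7 FPKM without RA. Brakes on the pathway rose too, Ubash3b by 1.54 ± 0.10 and Dgkz by 0.70 ± 0.04. Cd4, the coreceptor gene, stood at 87.7 and 76.8 FPKM with RA and 49.9 and 46.6 FPKM without RA. The scavenger-receptor family genes Cd5 and Cd6, which also tune receptor signals, fell by 1.15 ± 0.14 and 0.87 ± 0.11 (log2 ± SE). Of 19 tested anergy and exhaustion genes 13 rose and 1 fell, with a median log2 change of 0.73, and of 25 costimulatory and co-inhibitory receptors 10 rose and 11 fell. Tnfrsf9, the gene of the costimulator 4-1BB, stood at 38.2 and 31.9 FPKM with RA and 5.29 and 5.42 FPKM without RA, and its RA effect exceeded that in WT by 2.17 ± 0.20 (adjusted p = 0.0005). Tigit, an inhibitory receptor gene, stood at 15.7 and 12.9 FPKM with RA and 4.05 and 3.05 FPKM without RA. In WT Tigit had 2.63 and 3.89 FPKM with RA and 4.46 and 5.28 FPKM without RA, and the difference of 2.23 ± 0.29 between the genotypes was called (adjusted p = 0.0028).

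The inhibitory receptor gene Pdcd1 stood at 89.9 and 73.7 FPKM with RA and 35.1 and 31.5 FPKM without RA, and its ligand genes Cd274 and Pdcd1lg2 rose by 1.53 ± 0.11 and 1.65 ± 0.10. Tox, an exhaustion factor, and Lag3, an inhibitory receptor gene, were called in WT (1.00 and 0.86) but not in TG (0.30 ± 0.14 and 0.35 ± 0.15), and their TG minus WT differences were not called (adjusted p = 0.070 and 0.20). Under a block on replicate number Tox was called in TG. Havcr1, the gene of the costimulator TIM-1, fell to 0.180 and 0.170 FPKM with RA, against 1.80 and 2.93 FPKM without RA. It had 1.10 and 1.73 FPKM in WT with RA and 0.403 and 0.586 FPKM in WT without RA, and the difference between the genotypes was -2.18 ± 0.34 (adjusted p = 0.0073).

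Of 13 tested interleukin genes 8 fell and 2 rose, and without TG 0 nM replicate 1 or either TG 10 nM replicate no rise was left, with 1 left without TG 0 nM replicate 2. Il10, an anti-inflammatory cytokine gene, stood at 0.0909 and 0.0601 FPKM with RA and 5.61 and 7.71 FPKM without RA. Il21, which supports Th17 cells, fell more mildly, with 40.0 and 43.5 FPKM with RA against 58.7 and 65.6 FPKM without RA. Of 26 tested Th17 genes 17 fell and 4 rose (1 of the 17 passed the filter only through TG without RA). Maf, a Th17 factor, stood at 48.6 and 53.8 FPKM with RA and 54.8 and 56.4 FPKM without RA and was not called. Among homing receptors, Cxcr5, which guides cells to follicles, rose by 1.96 ± 0.15, while Ccr6 (-2.04 ± 0.32), the Th17 chemokine receptor gene, fell.

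Of 40 tested forkhead, Sox, homeobox and T-box factors 21 rose and 3 fell (5 fell under either block on replicate number), where 6 of the rises are Hox genes that passed the filter only through TG with RA, and of 34 KLF, GATA, ETS, RUNX and Ikaros factors 12 rose and 5 fell, with 7 rises left without TG 0 nM replicate 2 or without TG 10 nM replicate 1. Runx1 stood at 27.1 and 29.9 FPKM with RA and 5.96 and 5.57 FPKM without RA, and its relative Runx3 at 9.53 and 10.5 FPKM with RA and 23.9 and 24.7 FPKM without RA. These paralogous T-cell regulators thus moved in opposite directions, by 2.13 ± 0.10 and -1.20 ± 0.10. Tbx21, the gene of the Th1 factor T-bet, stood at 17.0 and 14.7 FPKM with RA and 1.47 and 1.495 FPKM without RA. Foxo3, a forkhead factor of quiescent cells, stood at 14.9 and 14.7 FPKM with RA and 5.67 and 4.81 FPKM without RA. Its RA effect was 1.34 ± 0.08 in TG and 0.23 in WT, and the difference of 1.12 ± 0.12 was called (adjusted p = 0.00097). Satb1, a chromatin organiser, fell to 14.6 and 12.97 FPKM with RA, against 59.0 and 58.1 FPKM without RA, and stood at 17.9 and 14.2 FPKM in WT with RA and 40.0 and 37.6 FPKM in WT without RA.

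Hox genes, which pattern the body axis and include classical RA targets in embryos, were at low levels. Of 39 Hox genes listed, 6 passed the filter, and all 6 did so only through the TG libraries with RA, so that their difference was built into the filter and their count supports nothing. Hoxb4 (chromosome 11, 96318267 to 96321638) stood at 5.10 and 5.86 FPKM in TG with RA and 0.454 and 0.534 FPKM in TG without RA, with 0.390 and 0.766 FPKM in WT with RA and 0.432 and 0.418 FPKM in WT without RA. Hoxb3 stood at 2.97 and 3.17 FPKM in TG with RA and was listed at 0 in TG without RA. Hoxa4 stood at 2.58 and 2.57 FPKM with RA and 0.159 and 0.221 FPKM without RA. In 13 of the 39 both TG libraries with RA exceeded all 10 other libraries, and 8 reached 0.5 FPKM in both of these libraries, while 0 did so in both libraries of any other group. The 13 include the 6 that passed the filter and genes near 0, such as Hoxb5 at 0.0214 and 0.0424 FPKM in TG with RA. The like shares over all genes were not counted, so these counts are a description only. Hoxa9, Hoxa10, Hoxa11 and Hoxa13 were at or near 0 throughout. Halr1, a noncoding transcript of the Hoxa cluster, stood at 3.28 and 1.85 FPKM in TG with RA and was listed at 0 in all other libraries. Hox transcripts overlap on both strands, so reads may be shared.

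**Figure D4:**
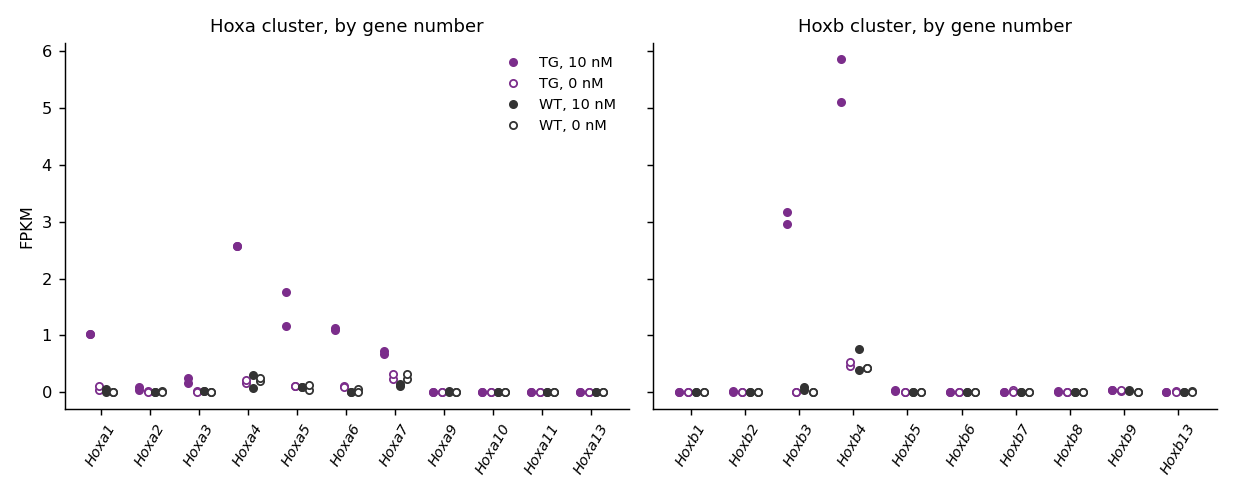
FPKM of the Hoxa and Hoxb genes, in order of gene number, in TG (purple) and WT (grey), filled with RA and open without, 2 libraries each. Only TG with RA rises above 1 FPKM, at Hoxb4, Hoxb3 and Hoxa4 most of all, and the genes numbered 9 and above lie near 0.

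Eya2 also passed the filter only through TG with RA, so its difference was built in. Eya2, a transcriptional cofactor and phosphatase gene, stood at 6.69 and 5.90 FPKM in TG with RA and was listed at 0 in TG without RA, with 0.0796 and 0.124 FPKM in WT with RA and 0.0449 and 0.0762 FPKM in WT without RA. Slc8b1 and Mgll, which passed the filter in every group, were called in TG with a WT effect of under 0.2 in size. Slc8b1, which encodes a mitochondrial sodium-calcium exchanger, stood at 11.1 and 10.5 FPKM with RA and 1.45 and 1.66 FPKM without RA. Mgll, a monoacylglycerol lipase gene, went down, with 3.34 and 3.03 FPKM with RA against 15.001 and 14.99 FPKM without RA. In WT Mgll had 5.80 and 5.22 FPKM with RA and 5.40 and 4.75 FPKM without RA, and the difference of -2.04 ± 0.14 was called (adjusted p = 0.00013). Of the called rises, 52 were under 0.5 FPKM without RA and at 2 FPKM or more with RA in TG. Of the called falls, 21 were the reverse. Some of these genes passed the filter only through the TG group where they are high, so their difference was built in. Examples are Eya2, Hoxb3 and Hoxa4 among the rises and Gcnt4 and Cxcl10 among the falls.

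The most uniform falls were in genes of cell growth. Of 49 tested ribosome biogenesis factors 0 rose and 40 fell, with a median log2 change of -0.35 in TG against -0.15 in WT and -0.02 over all genes in TG. The members were lower with RA in 45 of 49 within replicate 1 and 49 of 49 within replicate 2, although the labels do not pair libraries by number. Over all 11922 genes tested, 5720 were higher with RA within replicate 1 and 5681 within replicate 2. Ncl, the nucleolin gene, stood at 317 and 316 FPKM with RA and 414 and 449 FPKM without RA (-0.44 ± 0.06, adjusted p = 0.00045). Nop2, an rRNA methyltransferase gene, stood at 79.6 and 74.1 FPKM with RA and 103 and 110.2 FPKM without RA. Rrp12, a ribosome export factor, stood at 20.7 and 21.1 FPKM with RA and 34.8 and 35.4 FPKM without RA. The changes were small and the doses did not overlap in these genes. With RA both TG libraries lay below both WT libraries in 46 of the 49, against 29.89% of all genes tested, and without RA in 2, against 22.02% of all genes tested. The RA effect itself was called more negative in TG than in WT in 2, one of them Nat10, an RNA acetyltransferase gene (-0.45 ± 0.06, adjusted p = 0.0036). Myc, the growth regulator, stood at 156 and 160.0 FPKM with RA and 198 and 206 FPKM without RA (-0.35 ± 0.07).

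Of 20 aminoacyl-tRNA synthetases, which load tRNAs, 15 fell and 1 rose. Iars, which loads isoleucine, stood at 54.6 and 52.3 FPKM with RA and 74.5 and 78.6 FPKM without RA. The member that rose was Wars, which is also interferon-inducible, with 50.4 and 45.4 FPKM with RA and 37.4 and 37.6 FPKM without RA. The letters CACGTG, the E-box that Myc and Max bind, were in the promoter windows of 11 of 44 ribosome biogenesis factors (25%) and 4 of 12 synthetases (33.3%) with a window, and also of 6 of 23 genes of sterol synthesis and uptake (26.1%), a list with 17 rises and 1 fall. They were in 274 of 1783 falls (15.4%), 203 of 1786 rises (11.4%), 1042 of 8309 tested genes (12.5%) and 2187 of 27025 genes with a window (8.09%). One site of each kind is shown, with the E-box in capitals, 5′ to 3′ along the plus strand, at chr6:125131823-125131828 for Nop2 and chr13:49682061-49682066 for Iars.
Nop2: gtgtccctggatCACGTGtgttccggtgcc
Iars: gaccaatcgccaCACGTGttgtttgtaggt
Both lie upstream of the start of the gene.

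Of 39 tested genes of serine, one-carbon and amino acid synthesis 27 fell and 3 rose, and 15 falls were left without TG 0 nM replicate 2, 16 without TG 10 nM replicate 2 and 17 without TG 10 nM replicate 1. Psat1, a serine synthesis enzyme gene, stood at 55.9 and 55.7 FPKM with RA and 93.5 and 115 FPKM without RA. Odc1, the first enzyme of polyamine synthesis, stood at 50.4 and 45.6 FPKM with RA and 115 and 111 FPKM without RA. Of the 3 rises in the serine, one-carbon and amino acid list, 1 passed the filter only through TG with RA. Of 29 tested genes of the integrated stress response and the unfolded protein response 16 fell and 2 rose. Sdf2l1, an endoplasmic reticulum chaperone component, stood at 37.5 and 38.1 FPKM with RA and 74.2 and 73.4 FPKM without RA, and the sensor gene Atf6 fell by 0.85 ± 0.07 (log2 ± SE). The members that rose were Xbp1, a secretory-pathway factor, with 70.3 and 67.4 FPKM with RA against 46.9 and 50.1 FPKM without RA, and the chaperone gene Dnajc3 (0.43 ± 0.09).

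Other growth-related lists leaned the same way less evenly in the fit of all 12 libraries, where 19.4% of all genes tested fell. Falls over all genes also dropped when a TG library was left out. The counts of such fits therefore do not show by themselves that a list leaned beyond all genes. Among splicing factors 32 of 91 fell and 4 rose, with 13 falls left without TG 0 nM replicate 2 and 15 without TG 10 nM replicate 1. Among RNA helicases 25 of 50 fell and 1 rose, with 13 falls without TG 0 nM replicate 2. Among translation initiation and elongation factors 22 of 56 fell and 2 rose, with 13 falls without that library. Mitochondrial ribosomal proteins gave 26 falls among 76, which dropped to 11 without TG 0 nM replicate 2, 16 without TG 10 nM replicate 1 and 10 without TG 10 nM replicate 2. Nuclear-encoded oxidative phosphorylation subunits gave 23 falls and 6 rises among 77, with 8, 15 and 9 falls without the same 3 libraries. Cytosolic ribosomal proteins, which share reads with many pseudogenes, were mostly not called, with 12 falls and 2 rises among 80, a share of falls below that of all genes. Glycolysis genes had 14 falls and 6 rises among 31, with 6 falls left without TG 0 nM replicate 2, 7 without TG 10 nM replicate 2 and 9 without TG 10 nM replicate 1. Pkm, which encodes pyruvate kinase, stood at 212 and 208 FPKM with RA and 304 and 317 FPKM without RA, while Hk2, the hexokinase gene, stood at 37.6 and 40.4 FPKM with RA and 21.3 and 24.6 FPKM without RA.

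**Figure D5:**
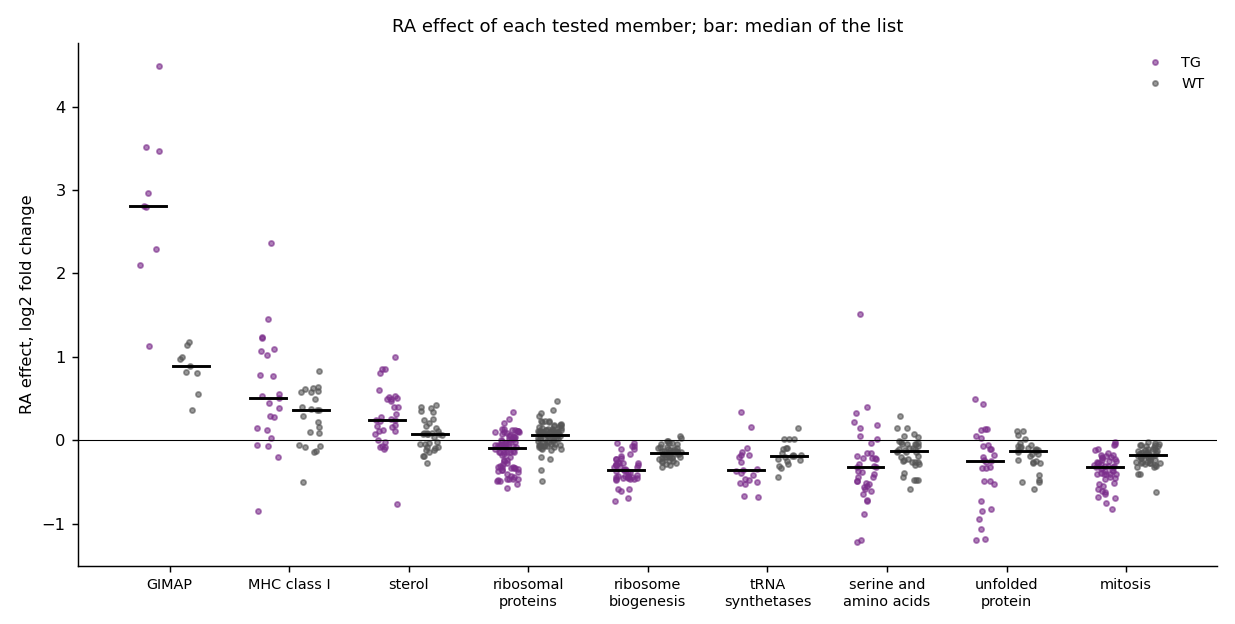
RA effect (log2 fold change) of every tested member of 9 lists in TG (purple) and WT (grey), with the median of each list as a black bar. GIMAP members lie at 1.13 and above in TG, while nearly all ribosome biogenesis and mitosis members lie just below 0, further from 0 in TG than in WT by their medians.

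Among lipid genes the sterol list leaned upwards, and the fatty acid list changed in both directions. Of 33 tested genes of sterol synthesis and uptake 17 rose and 1 fell, with a median log2 change of 0.24. The 1 fall passed the filter only through TG without RA, so it was built into the filter. Of 47 genes of fatty acid synthesis, storage and oxidation 19 rose (40.4%) and 11 fell (23.4%), against 19.7% and 19.4% of all genes tested. In that list 2 rises and 3 falls were of 2-fold or more. Fdft1, which encodes squalene synthase, stood at 26.7 and 26.3 FPKM with RA and 12.2 and 13.4 FPKM without RA. Srebf2, the master regulator of sterol genes, stood at 93.8 and 94.2 FPKM with RA and 63.2 and 60.4 FPKM without RA, and Abcg1, which exports cholesterol, rose by 0.85 ± 0.09. The SREBP targets Sqle (-0.02 ± 0.08) and Insig1 (0.01 ± 0.12) were not called. Plin2, which coats lipid droplets, stood at 4.39 and 4.73 FPKM with RA and 0.592 and 0.502 FPKM without RA, and Cpt1a, the entry enzyme of fatty acid oxidation, rose by 0.64 ± 0.07.

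The count for mitosis genes changed with the block and with the libraries in the fit. Of 51 tested mitosis genes 1 fell and 0 rose, with a median log2 change of -0.32. The members were lower with RA in 50 of 51 within replicate 1 and 49 of 51 within replicate 2. Of all 11922 genes tested, 5720 and 5681 were higher with RA within replicates 1 and 2. A block on replicate number gave 29 falls, the same block within genotype 39 and a fit of the 4 TG libraries alone 20, with 0 rises in each. Ube2c, a ubiquitin enzyme of mitotic exit, stood at 19.1 and 20.2 FPKM with RA and 32.0 and 39.7 FPKM without RA (-0.83 ± 0.41, adjusted p = 0.14). It was called under both blocks. Among G1 genes, Cdk6, a kinase that starts the cycle, stood at 7.46 and 8.41 FPKM with RA and 29.8 and 24.4 FPKM without RA, and Cdkn2d, an inhibitor of that kinase, at 73.1 and 68.1 FPKM with RA and 24.0 and 24.9 FPKM without RA. Cdk6 fell and Cdkn2d rose, with a TG minus WT difference for Cdkn2d of 0.98 ± 0.08 (adjusted p = 0.00025).

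By annotated class, protein-coding genes gave 2209 rises and 2166 falls among 10172 tested. Long intergenic noncoding RNAs gave 30 rises (20.4%) and 12 falls (8.16%) among 147, and antisense transcripts 26 (21.8%) and 12 (10.1%) among 119. Over all genes tested 19.7% rose and 19.4% fell, so both classes had a like share of rises and a smaller share of falls. Processed pseudogenes, which share reads with their parent genes, gave 24 rises (3.27%) and 50 falls (6.82%) among 733, and small nucleolar RNAs 0 and 6 (5.26%) among 114. Of 17 tested hosts of small nucleolar RNAs and miRNAs 8 fell and 0 rose, 4 without TG 0 nM replicate 2 or TG 10 nM replicate 1 and 13 with the block within genotype. Snhg12, one such host, stood at 19.4 and 19.6 FPKM with RA and 28.9 and 35.0 FPKM without RA.

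T-cell markers were high throughout, with 16 of 16 listed genes tested and a summed level of 2146.1 and 1887.4 FPKM in TG with RA and 2558.2 and 2313.7 FPKM in TG without RA. Markers of other cells summed to lower levels. Monocyte and macrophage markers summed to 4.22 and 6.22 FPKM with RA and 3.79 and 6.17 FPKM without RA, and gamma delta T-cell markers, with 0 of 4 tested called, to 4.71 and 5.92 FPKM with RA and 4.63 and 5.09 FPKM without RA. The 14 B-cell markers summed to 133.79 and 137.88 FPKM with RA and 51.749 and 59.348 FPKM without RA, of which Ighm made up 101 and 95.9 FPKM with RA and 27.5 and 27.6 FPKM without. Of 12 tested 1 rose, a call (Ighm) that ended without any 1 TG library. The 15 dendritic-cell and class II markers summed to 161.29 and 149.9 FPKM with RA and 42.526 and 57.628 FPKM without RA, and 5 of 10 tested rose (Batf3 and Itgax among them passed the filter only through TG with RA). H2-DMa made up 110.3 and 88.2 FPKM of that sum with RA and 12.8 and 10.8 FPKM without RA, whereas Cd74, the invariant chain gene, stood at 16.0 and 21.8 FPKM with RA and 15.7 and 26.2 FPKM without RA. Natural killer markers summed to 40.085 and 39.912 FPKM with RA and 47.063 and 54.012 FPKM without RA, with Klrd1 down (4.28 and 5.25 FPKM with RA, 44.4 and 50.02 FPKM without RA) and Nkg7 up (33.7 and 31.8 FPKM with RA, 0.721 and 1.33 FPKM without RA). C1qa, C1qb, S100a8, S100a9, Ngp, Col1a2 and Col3a1 were listed at 0 in all TG libraries. The part of other cells in the class I, class II and lysosomal rises was not tested.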

How the data were processed

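RNA was measured by single-end RNA-seq in 12 libraries, 2 for each of 3 genotype labels and 2 RA doses. The authors deposited 1 table of FPKM per gene. Per the submitters' processing notes, which give no roles, the builds were GRCm38.p5 and mm10 and the tools DESeq2, HTSeq 0.6.1, STAR and Trimmomatic 0.32; the sources used here do not give the annotation release or the strand setting. The deposited FPKM values were converted to log2(FPKM + 1) and fitted with limma 3.58.1 in R 4.3.3 (6 group means over 12 libraries, trend in the prior, 6 residual degrees of freedom) over 11922 genes, with Benjamini-Hochberg adjustment at 0.05, two-sided. TG minus WT differences are contrasts of that fit. Reads recovered from FPKM and exon length were whole, within 0.02, for 95.3% to 95.9% of values up to 20 reads in each library; limma's voom on them was an alternative and called 4919 genes in TG. Depth over all libraries was 16289969 to 25534588 reads, which limits low genes most. On simulated RA in TG over 11910 genes, the fit recovered 4 of 67 true 1.5-fold changes, 33 of 67 true 2-fold changes and 62 of 66 true 4-fold changes, and it called 0 of 11710 unchanged genes. The simulation gave every gene the same overdispersion of 0.02 and drew the libraries independently. It also changed a far smaller share of genes than was called in the data, so its rates need not hold for these libraries.

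The labels do not say that replicate numbers pair libraries. Deviations from group means of same-numbered libraries correlated at 0.327 in WT, 0.320 in KO-labelled and 0.147 in TG cells. The main fit held no block, so its counts, SEs and p-values treat the libraries as unpaired. Fits with a block on replicate number were run as alternatives and are given beside some results. In TG the block called 5215 genes and the block within genotype 5377, against 4662 in the main fit. Other alternatives were a pseudocount of 0.1, no filter, upper-quartile scaling, the 4 TG libraries alone and leaving out each TG library.

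Genes were named by rule: the 10 largest rises and falls whose doses do not overlap, up to 4 called members per list and direction, fixed receptor and lineage genes, genes of a called TG minus WT difference with little effect in WT, marker genes and abundant genes. Others, among them Havcr1, Tigit, Tbx21, Igsf23 and the genes given as not called, were chosen after their values were seen. The 77 gene lists and the comparison itself were chosen with earlier results of these data known, and the name patterns of some lists were corrected after their matches were seen. Promoters are RefSeq windows (GRCm38.p6); gene positions are from GENCODE M21 (GRCm38). Some genes are not reported here.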

Additional observations from a re-analysis of the deposited data

Results flagged for a closer look

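The RA effect differed between TG and WT in the limma contrast of the difference for 11 genes named with that difference above. It was more positive in TG for Gimap3 (3.34), Chst11 (2.47), Tigit (2.22), Tnfrsf9 (2.17), Rara (1.24), Foxo3 (1.12) and Cdkn2d (0.98), as log2 differences. It was more negative in TG for Timp1 (-2.28), Havcr1 (-2.18), Mgll (-2.04) and Nat10 (-0.45).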

How the results depend on the processing

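Leaving out 1 TG library at a time gave 1449 to 2050 falls in TG, 9 to 12 calls in KO-labelled cells, 485 to 712 TG minus WT differences and 1165 to 1738 TG minus KO-labelled differences, with fewer samples in each fit. The 17 calls in KO-labelled cells became 30 with no filter, 73 with the replicate block and 75 with the replicate block within genotype; the cause was not tested. The replicate block called 5215 genes in TG against 4662 without it. It ended the call of none of the genes named as called in TG or in the TG minus WT difference. Ighm lost its call without any 1 TG library, and Tgfbr3 without either replicate 1. With 2 libraries a group, changes under 2-fold are those most limited by depth and spread.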
